A study of Mus musculus with 6 samples.

Results

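Syndecans and glypicans, the heparan sulfate proteoglycans of the cell surface, were examined in osteoblasts (OBs) that had been sorted from ectopic bone induced by BMP-2. The family comprises 10 genes, the 4 syndecans *Sdc1*, *Sdc2*, *Sdc3* and *Sdc4* and the 6 glypicans *Gpc1*, *Gpc2*, *Gpc3*, *Gpc4*, *Gpc5* and *Gpc6*, and its rows were taken by gene symbol from the 23284 genes listed for each sample. All 10 genes were listed in all 6 samples, and all 10 had a mean above 0.1 FPKM (a level scaled to transcript length and to the reads mapped in the sample), the level required for the comparison between days.

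Both groups were ECFP+ OBs from male *Col2.3*-ECFP mice aged 12 to 16 weeks, whose OBs make a cyan fluorescent protein under a fragment of the type I collagen promoter. All mice carried this transgene, and all had received a subcutaneous collagen sponge with 2.5 μg of BMP-2, so that no group without BMP-2 enters the comparison. The groups were day 10 (n = 3) and day 14 (n = 3) after implantation, and the sample titles call them biological replicates without saying whether cells of several mice were pooled. Bone pieces were treated with 0.25% trypsin for 15 min and with 0.2% collagenase II for 40 min, in 1 round of collagenase on day 10 and 2 rounds on day 14, so the day and the number of rounds cannot be told apart. The sort excluded CD45+ and dead cells. The titles place the 3 later samples on day 14, whereas their descriptions give day 14, 15 and 16 for replicates 1, 2 and 3. The titles were used here.

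The depth was estimated from the FPKM steps of low genes at 4556921 to 7788491 mapped reads per sample, at which 3 reads on 1000 usable bases are worth 0.385 to 0.658 FPKM, counting error only. All 12 OB markers were above 0 FPKM in all 6 samples, and their sum ran from 54078 to 104063 FPKM on day 10 and from 39474 to 77549 FPKM on day 14. Replicate 2 of day 14 stood apart from the other day 14 samples: the summed FPKM of 13 cartilage markers was 2618 in that sample against 286 and 206 in replicates 1 and 3, with 887 to 1856 on day 10. Its mean log2 levels of OB and of fibroblast and progenitor markers were within the range of day 10 and outside that of the other day 14 samples. By these lists it was nearer to day 10 than its label would place it. Other lists did not place it there: its summed osteoclast markers, 655 FPKM and mostly *Ctsk*, were above the 447 to 490 FPKM of day 10. Its endothelial sum, 5.33 FPKM, was also above day 10, at 1.98 to 4.34 FPKM. No gene of that list was above 2.39 FPKM in any sample. By mean log2 level its osteoclast markers, at 0.68, were below the 1.53 to 2.19 of day 10. Its mean log2 level of myeloid markers, −0.35, was below the 1.42 to 3.73 of day 10. Its cartilage sum was above every day 10 sample. Whether the label holds was not tested, and the sample was kept on day 14. The members, and the other values that moved by more than 1.5-fold without it, are given with and without this sample. In bulk RNA, fewer cells of a type and less RNA per cell cannot be told apart.

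Syndecans are transmembrane proteins with a short conserved cytoplasmic tail, and glypicans are tethered to the membrane by a glycosylphosphatidylinositol anchor. Both carry heparan sulfate chains that bind growth factors, among them BMPs, Wnt and Hedgehog proteins and fibroblast growth factors, and so act as co-receptors and as a local store of these ligands. In humans, loss of glypican-3 function causes an overgrowth syndrome with skeletal changes, and glypican-6 mutations shorten the limbs.

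*Gpc1* was the most abundant member, with 211 to 514 FPKM over the 6 samples, and it was above *Sdc3*, the next in order, in 6 of 6 samples. *Gpc1* ranked 109 on day 10 and 197 on day 14 among all genes listed, ordered by the mean of the day. FPKM is a level per length, so members can be set beside each other on this scale. The mean over the 6 samples was 362 FPKM for *Gpc1*, 163 FPKM for *Sdc3*, 106 FPKM for *Sdc1*, 89.5 FPKM for *Sdc4* and 76.7 FPKM for *Sdc2*. These were followed by *Gpc4* at 50.6 FPKM, *Gpc3* at 29.2 FPKM and *Gpc6* at 13.2 FPKM, whereas *Gpc2* at 0.426 FPKM and *Gpc5* at 0.364 FPKM were close to the depth limit. Only 2 steps of this order had ranges that did not overlap over the 6 samples, from *Gpc3* to *Gpc6* and from *Gpc6* to *Gpc2*. The order of *Sdc3* and *Sdc1* held in 4 of 6 samples, that of *Sdc1* and *Sdc4* in 3 of 6, and that of *Gpc2* and *Gpc5* in 2 of 6, and over the 6 samples these neighbours did not differ beyond their spread, although on day 10 alone *Sdc3* (147 to 222 FPKM) lay above *Sdc1* (51.9 to 87.2 FPKM). The other neighbours kept their order in 6 of 6 samples although their ranges overlapped.

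**Figure D1:**
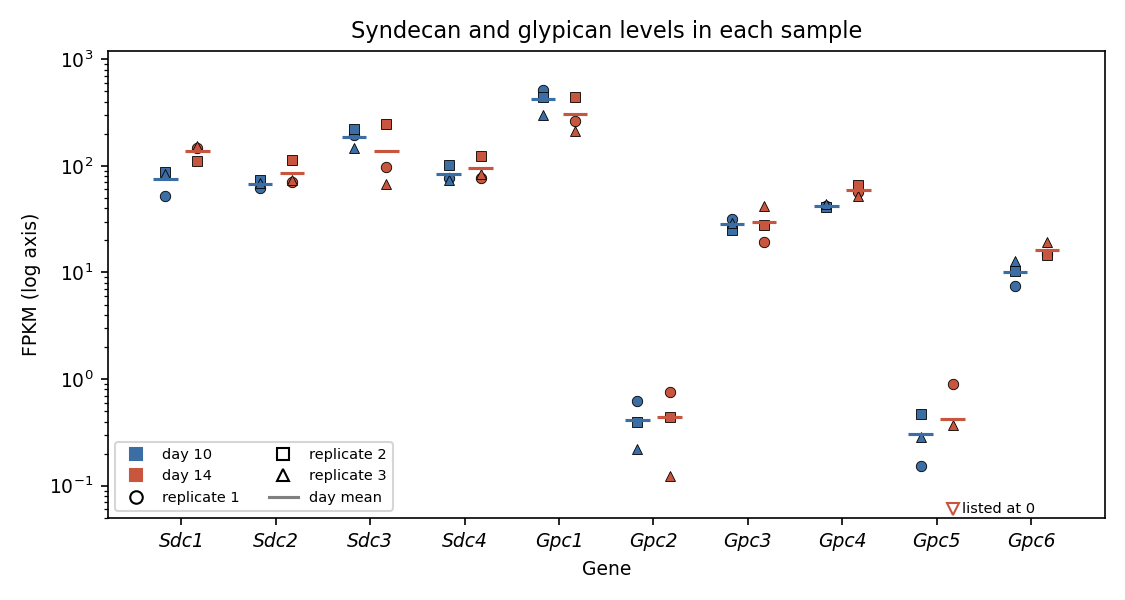
FPKM on a log axis for each member in each of the 6 samples, with day 10 in blue, day 14 in red, a symbol per replicate number and a line at each day mean. All day 14 points of *Sdc1*, *Gpc4* and *Gpc6* lie above all day 10 points, and *Gpc5* was listed at 0 in replicate 2 of day 14.

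The days were compared to ask whether the expression of these co-receptors differs over the interval in which OBs change shape and mineral appears. *Sdc1*, *Gpc4* and *Gpc6* were higher on day 14, with all 3 day 14 samples above all 3 day 10 samples, and no member was lower in this way. Over all 19526 genes tested, 7.59% had days that did not overlap with day 14 higher and 6.67% with day 14 lower. By limma on log2(FPKM + 0.1), the same 3 of 10 members had an unadjusted p under 0.05, all higher on day 14, beside 5.60% of all genes higher and 4.40% lower. After Benjamini-Hochberg adjustment over all genes tested, 0 of 10 members had an adjusted p under 0.05 from limma, beside 0.0154% of all genes. An ordinary linear model per gene also gave 0 members with such an adjusted p, and 2 members, *Sdc1* and *Gpc4*, with an unadjusted p under 0.05. None of the members differed by more than 2-fold, whereas 5.25% of all genes were higher and 8.39% lower by more than this, 13.6% together. The fold changes are those of FPKM + 0.1, which understates the change of low genes. The median log2 fold change of the 10 members was 0.074, and that of all genes tested was −0.043.

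**Figure D2:**
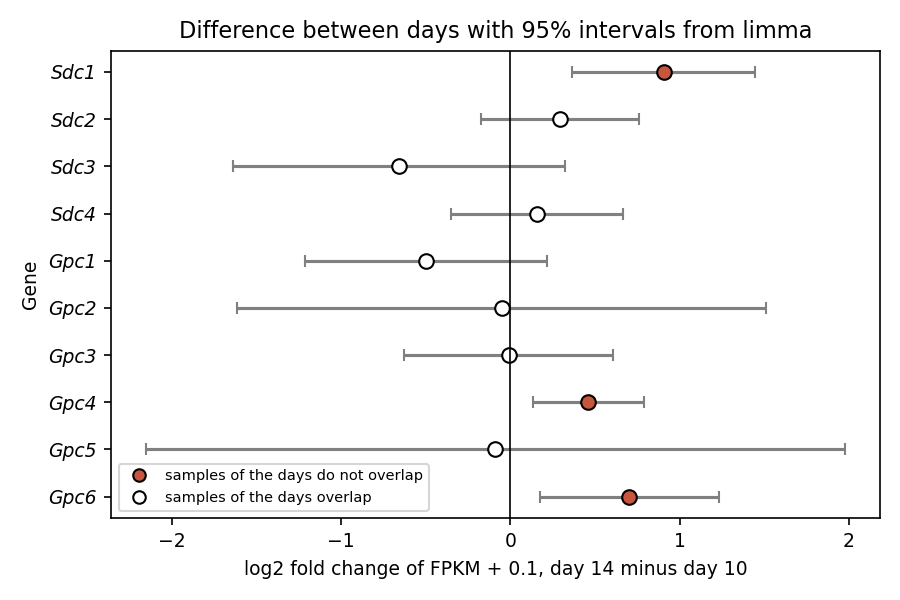
Log2 fold change of FPKM + 0.1, day 14 minus day 10, for each member with its 95% interval from limma. Filled points mark the 3 members whose samples do not overlap between days, and the widest intervals are those of *Gpc2* and *Gpc5*.

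*Sdc1* encodes the syndecan best known from epithelia and plasma cells and lies on chromosome 12 from 8771323 to 8793715 in mm10 (plus strand). It had 51.9, 87.2 and 84.5 FPKM in replicates 1, 2 and 3 of day 10 and 148, 111 and 153 FPKM in those of day 14. Its lowest value on day 14 was that of replicate 2, which was still above all day 10 samples. The mean was 74.5 ± 19.7 FPKM (SD, n = 3) on day 10 and 137 ± 23.4 FPKM (SD, n = 3) on day 14, a fold change of 1.87 and a log2 fold change of 0.90 (standard error, SE, 0.24, 95% interval 0.36 to 1.45, adjusted p = 0.314 from limma). The exact permutation test (two-sided) gave p = 0.1, and a design of 3 against 3 can go no lower. Markers of other cells in which *Sdc1* is high were examined beside it. Of 7 epithelial markers, 2 were above 0 in all 6 samples, with a summed level of 2.24 to 3.13 FPKM on day 10 and 0.585 to 3.19 FPKM on day 14. Of the 7 plasma and B cell markers listed, *Cd79a*, *Cd79b* and *Tnfrsf17* were each at 0 in at least 1 sample, and the sum of the list, 195 to 247 FPKM on day 10 and 152 to 187 FPKM on day 14, was nearly all *Xbp1*, a secretory pathway factor that OBs also express.

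*Sdc3* encodes the syndecan with the longest ectodomain and lies on chromosome 4 from 130792537 to 130826319 (plus strand). It had 196, 222 and 147 FPKM on day 10 and 97.3, 249 and 67.5 FPKM on day 14, in the order of the replicate numbers. Replicates 1 and 3 of day 14 were below all day 10 samples, whereas replicate 2 was the highest of all 6. With all samples the mean was 188 ± 37.7 FPKM (SD, n = 3) on day 10 and 138 ± 97.5 FPKM (SD, n = 3) on day 14. The log2 fold change was −0.65 (SE 0.43, 95% interval −1.63 to 0.33, adjusted p = 0.677 from limma). The days overlapped through replicate 2, and the exact permutation test (two-sided) gave p = 0.4. Without replicate 2 of day 14 the log2 fold change was −1.19 (adjusted p = 0.0876 from limma), and over the 16 other settings of processing or samples the adjusted p from limma or the linear model ran from that value to 0.997. Among the members above 1 FPKM, the SD of log2(FPKM + 0.1) over the 6 samples was largest for *Sdc3*, at 0.737.

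The bases before the annotated starts of *Sdc1* and *Sdc3* are shown because these genes exchanged places in the order of the syndecans between day 10 and replicates 1 and 3 of day 14. They are RefSeq sequences of GRCm38.p6 on the plus strand, limited to bases outside the GENCODE gene, with capitals marking the GC box GGGCGG on either strand. The *Sdc1* stretch is chr12:8771146-8771322 and the *Sdc3* stretch is chr4:130792287-130792536. The RefSeq start of *Sdc1* is at 8771396, so the bases from 8771323 up to that start were left out. The *Sdc3* stretch ends next to its RefSeq start at 130792537.
*Sdc1*: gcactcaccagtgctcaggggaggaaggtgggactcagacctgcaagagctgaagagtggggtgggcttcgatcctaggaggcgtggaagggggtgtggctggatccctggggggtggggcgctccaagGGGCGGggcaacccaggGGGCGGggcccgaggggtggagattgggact
*Sdc3*: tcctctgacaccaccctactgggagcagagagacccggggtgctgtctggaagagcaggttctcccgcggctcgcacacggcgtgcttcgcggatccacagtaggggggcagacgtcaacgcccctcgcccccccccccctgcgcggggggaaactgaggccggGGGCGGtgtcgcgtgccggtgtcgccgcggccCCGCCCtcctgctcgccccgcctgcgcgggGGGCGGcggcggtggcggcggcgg

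The *Sdc1* stretch of 177 bases held 2 GC boxes, and 20.6% of all promoters over the same 177 bases held at least 1. The *Sdc3* stretch of 250 bases held 3 GC boxes, and 32.7% of all promoters held at least 1 over 250 bases. Both stretches were rich in G and C, at 68.4% for *Sdc1* and 76.4% for *Sdc3*, beside a median of 51.4% and 52.4% over all promoters of the same length. The TATA box (letters TATAAA), the RUNX motif (letters TGTGGT), the AP-1 motif (letters TGANTCA), the E-box (letters CACGTG) and an NF-kB motif, searched on both strands, did not occur in either stretch. Over all promoters of 250 bases they occurred in 12.4%, 14.0%, 6.75%, 6.02% and 0.356%, and over the first 177 bases in 8.26%, 10.2%, 4.84%, 3.61% and 0.253%. A match describes the letters only, and no match says only that these letters are not in the stretch. For *Sdc1*, the bases nearest the RefSeq start were not searched. Of the 10 members, 7 were in the promoter table, and *Sdc2*, *Gpc1* and *Gpc6* were not.

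*Sdc4* encodes the syndecan of focal adhesions, which binds fibronectin and protein kinase C alpha, and lies on chromosome 2 from 164424247 to 164443887 (minus strand). It had 76.3, 102 and 73.6 FPKM on day 10 and 76.8, 124 and 83.5 FPKM on day 14, so the days overlapped and replicate 2 was the highest on each day. The log2 fold change was 0.16 (95% interval −0.35 to 0.67, adjusted p = 0.875 from limma). *Sdc2*, a syndecan of mesenchymal cells on chromosome 15 from 32920723 to 33034935 (plus strand), had 61.4, 74.1 and 68.8 FPKM on day 10 and 70.5, 112 and 73.0 FPKM on day 14. Its days overlapped as well, and the high mean of day 14 came from replicate 2 (log2 fold change 0.30, 95% interval −0.17 to 0.76, adjusted p = 0.701 from limma). Without that sample the log2 fold change was 0.08 for *Sdc2* and −0.053 for *Sdc4*. The intervals of both genes include no change, and a difference of up to 1.70-fold for *Sdc2* and 1.59-fold for *Sdc4* in favour of day 14 lies within them.

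*Gpc1*, the glypican with the broadest expression in adult tissue, lies on chromosome 1 from 92831645 to 92860779 (plus strand). It had 514, 446 and 299 FPKM on day 10 and 261, 439 and 211 FPKM on day 14. Replicates 1 and 3 of day 14 were the lowest of all 6, and replicate 2 was within the range of day 10. Its mean was 419 ± 109.8 FPKM on day 10 and 304 ± 120.01 FPKM on day 14 (SD, n = 3 each). The log2 fold change of −0.50 (SE 0.31, 95% interval −1.21 to 0.22, adjusted p = 0.653 from limma) was within the spread between replicates. Without replicate 2 of day 14 it was −0.80 (unadjusted p = 0.0179, adjusted p = 0.251 from limma).

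*Gpc4* and *Gpc3* lie side by side on chromosome X on the minus strand, *Gpc4* from 52053021 to 52165252 and *Gpc3* from 52272426 to 52613950, with 107173 bases between them. *Gpc4* had 41.9, 41.4 and 44.1 FPKM on day 10 and 57.4, 66.0 and 52.6 FPKM on day 14. The day 10 samples were nearly identical, and the day 14 samples were all higher, with replicate 2 the highest. The mean was 42.4 ± 1.43 FPKM (SD, n = 3) on day 10 and 58.7 ± 6.79 FPKM (SD, n = 3) on day 14, a fold change of 1.38 and a log2 fold change of 0.46 (SE 0.14, 95% interval 0.13 to 0.79, adjusted p = 0.362 from limma; two-sided exact permutation test, p = 0.1). *Gpc3*, an inhibitor of Hedgehog signalling and of body growth, had 31.9, 24.8 and 29.4 FPKM on day 10 and 19.4, 27.6 and 42.4 FPKM on day 14, so that day 14 held both its lowest and its highest value. Its log2 fold change was −0.0099 (95% interval −0.63 to 0.61, adjusted p = 0.997 from limma). The ratio of *Gpc4* to *Gpc3* was 1.31, 1.67 and 1.499 on day 10 and 2.96, 2.39 and 1.24 on day 14, so the ratios of the days overlapped.

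*Gpc6* and *Gpc5* are neighbours on chromosome 14 on the plus strand, *Gpc5* from 115092215 to 116525179 and *Gpc6* from 116925315 to 117976544, with 400135 bases between them. *Gpc6*, a glypican of cartilage and limb growth, had 7.41, 10.3 and 12.7 FPKM on day 10 and 14.9, 14.7 and 19.4 FPKM on day 14. All day 14 samples were higher, although the gap between the days was small beside the spread within day 10. The mean was 10.1 ± 2.64 FPKM (SD, n = 3) on day 10 and 16.3 ± 2.66 FPKM (SD, n = 3) on day 14, a fold change of 1.63 and a log2 fold change of 0.70 (SE 0.23, 95% interval 0.18 to 1.23, adjusted p = 0.377 from limma; two-sided exact permutation test, p = 0.1). *Gpc5* was close to the depth limit, with 0.152, 0.475 and 0.288 FPKM on day 10 and 0.898, 0 and 0.370 FPKM on day 14, at most 10.7 estimated reads in a sample. *Gpc2*, known from the developing nervous system and located on chromosome 5 from 138273655 to 138280005 (minus strand), had 0.620, 0.394 and 0.223 FPKM on day 10 and 0.759, 0.439 and 0.123 FPKM on day 14, with 3.5 to 13.9 estimated reads. For both genes a difference between days was not detectable at this depth, and the 95% intervals of the log2 fold change ran from −2.15 to 1.98 for *Gpc5* and from −1.61 to 1.51 for *Gpc2*. The other 8 members rested on at least 142.7 estimated reads in every sample. Antisense genes overlap *Sdc3*, *Gpc1* and *Gpc3*, other genes on the opposite strand overlap *Gpc1* (*Ankmy1*) and *Gpc5* (*4930505G20Rik*), and, since the counting is not stated to use strand, their reads cannot be told apart. The same holds for *Gm43720*, a protein-coding gene on the same strand as *Gpc2*, and for small RNA genes within *Gpc1*, *Gpc3* and *Gpc6*.

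The makeup of each family was then set out as the share of its summed FPKM. *Gpc1* made up 77.5% to 86.2% of the glypican sum on day 10 and 64.8% to 80.2% on day 14. *Gpc4* made up 7.04% to 11.4% on day 10 and 12.05% to 16.2% on day 14, and *Gpc6* 1.24% to 3.29% and 2.67% to 5.94%. The ratio of *Gpc1* to *Gpc4* was 12.3, 10.8 and 6.78 on day 10 and 4.54, 6.65 and 4.01 on day 14, so every day 14 sample had a lower ratio. Among the syndecans, the share of *Sdc3* was 50.9%, 45.7% and 39.4% on day 10 and 24.8%, 41.8% and 17.9% on day 14, and that of *Sdc1* was 13.4%, 18.0% and 22.6% on day 10 and 37.7%, 18.5% and 40.6% on day 14. *Sdc3* was therefore the leading syndecan in all day 10 samples and in replicate 2 of day 14, and *Sdc1* in replicates 1 and 3 of day 14. The share of *Sdc4*, in contrast, lay between 19.5% and 22.1% in all 6 samples, and that of *Sdc2* between 15.3% and 19.3%. The summed level of the syndecans was 415 ± 60.9 FPKM (SD, n = 3) on day 10 and 456 ± 122 FPKM (SD, n = 3) on day 14, and that of the glypicans 501 ± 107 and 409 ± 121 FPKM (SD, n = 3 each). The higher syndecan sum of day 14 came from replicate 2, at 597 FPKM beside 393 and 377 FPKM, and without it the day 14 mean was 385 FPKM, below that of day 10. The glypican mean of day 14 without it was 340 FPKM. These ratios and shares were chosen after the values were seen and were not tested.

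**Figure D3:**
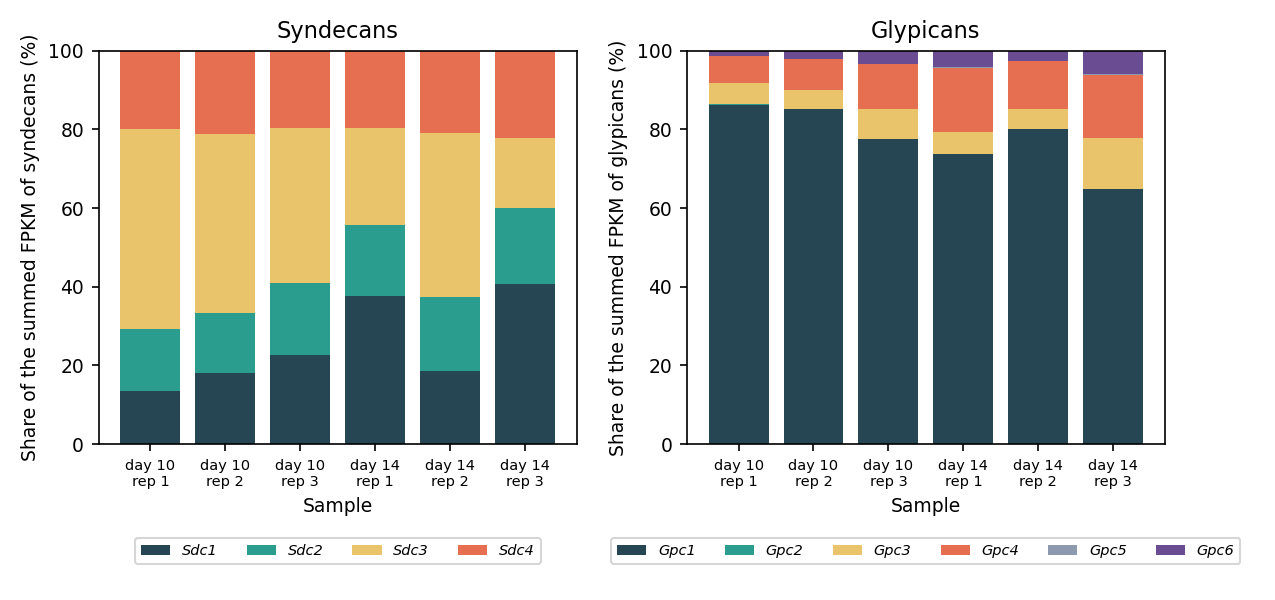
Share in % of the summed FPKM of the 4 syndecans (left) and the 6 glypicans (right) in each of the 6 samples. *Gpc1* takes the largest share of the glypicans in every sample, and *Sdc1* takes a larger share than *Sdc3* in replicates 1 and 3 of day 14.

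Marker levels were then set beside those of the members. The mean log2(FPKM + 0.1) of the cartilage markers was 5.22, 4.81 and 4.41 on day 10 and 2.42, 5.53 and 1.83 on day 14, and that of the OB markers 10.1, 10.4 and 9.08 on day 10 and 8.52, 9.77 and 7.61 on day 14. *Sdc3* and *Gpc1* were likewise lowest in replicates 1 and 3 of day 14. In the other direction, the mean log2 level of 9 fibroblast and progenitor markers, all above 0 in every sample, was 4.77, 4.85 and 5.47 on day 10 and 5.81, 5.11 and 6.11 on day 14, with a sum of 466 to 809 FPKM on day 10 and 715 to 1589 FPKM on day 14. Its highest values fell on replicates 1 and 3 of day 14, as did those of *Sdc1*. The sum was mostly *Ly6a* and *Cxcl12*. Within the list *Lepr* went the other way, from 7.70 to 18.8 FPKM on day 10 and 1.34 to 6.57 FPKM on day 14. The part of these markers, and of the cartilage and OB markers, in the member values was not tested. Of 11 myeloid markers, 9 were above 0 in all samples, with a sum of 48.1 to 416 FPKM on day 10 and 21.7 to 662 FPKM on day 14, lowest in replicate 2 and highest in replicate 3 of day 14. The sums of the remaining lists were 447 to 490 and 628 to 676 FPKM for osteoclasts, of which *Ctsk* had up to 614 FPKM, 1.98 to 4.34 and 5.33 to 10.2 FPKM for endothelium, 10.9 to 17.5 and 6.64 to 14.5 FPKM for skeletal muscle, and 42.7 to 50.4 and 44.3 to 59.4 FPKM for Schwann and neural cells, on day 10 and day 14 in turn. The osteoclast sum was mostly *Ctsk*. The mean log2 level of the osteoclast list was 1.62, 2.19 and 1.53 on day 10. On day 14 it was 1.89, 0.68 and 1.51, so by this measure the days overlapped.

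**Figure D4:**
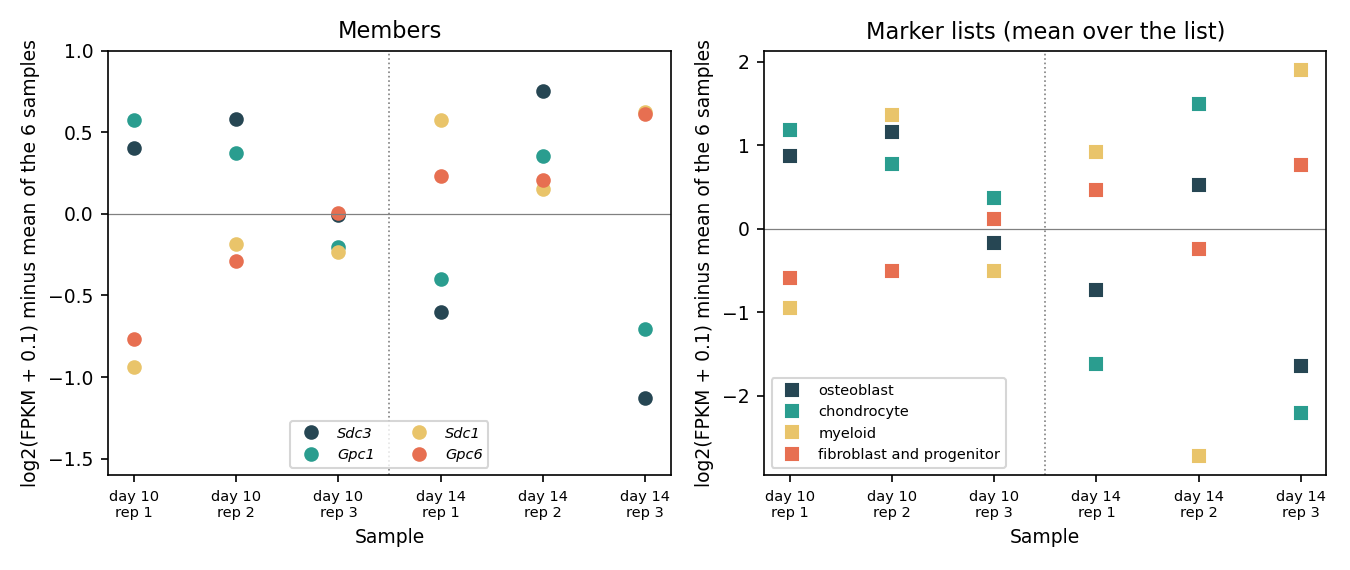
Log2(FPKM + 0.1) in each sample minus the mean of the 6 samples, for 4 members (left) and for the mean over 4 marker lists (right). In replicate 2 of day 14, *Sdc3* and *Gpc1* lie above 0 together with the cartilage and OB marker lists, and in replicates 1 and 3 of that day they lie below 0.

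The enzymes that make, edit and shorten heparan sulfate, and the proteins that process the core proteins or bind the syndecan tails, were examined as 6 lists of 64 genes in all. All 64 genes were listed, 60 were tested, and *Ndst4*, *Hs6st3*, *Hs3st2* and *Hpse2* were below the filter on low values. Of the 60, 14 had an unadjusted p under 0.05 from limma with a higher level on day 14 and 6 with a lower level, beside the 5.60% and 4.40% of all genes. None of the 60 had an adjusted p under 0.05 from limma, nor from the ordinary linear model. The median log2 fold change over the 60 genes was 0.23.

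**Figure D5:**
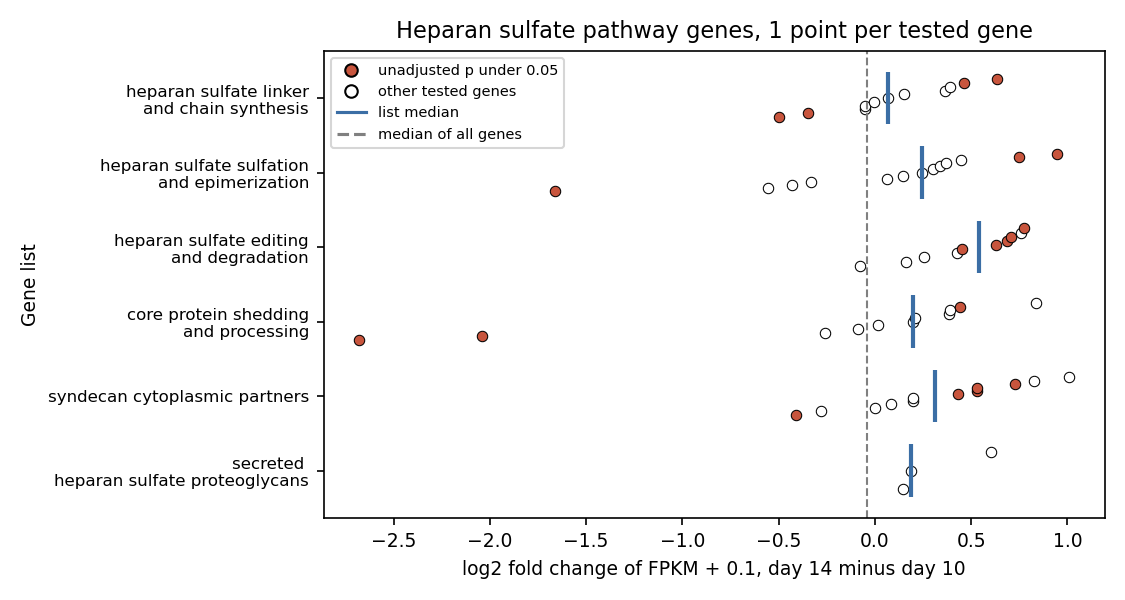
Log2 fold change of FPKM + 0.1, day 14 minus day 10, for each tested gene of the 6 lists, with filled points for an unadjusted p under 0.05, a bar at each list median and a dashed line at the median of all genes tested. The list of editing and degradation enzymes has the highest median, at 0.54, and *Notum* and *Pcsk6* lie farthest to the left.

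Chain synthesis begins on a linker of 4 sugars and is carried on by the *Ext1* and *Ext2* polymerase. *Ext1* had 39.3, 54.4 and 49.7 FPKM on day 10 and 69.6, 71.4 and 80.0 FPKM on day 14 (log2 fold change 0.63, adjusted p = 0.314 from limma), with no overlap between days. Its partner *Ext2* had 77.5, 69.5 and 68.1 FPKM on day 10 and 67.1, 75.6 and 64.8 FPKM on day 14 (log2 fold change −0.052, 95% interval −0.38 to 0.27). *Ext2* was above *Ext1* in all day 10 samples, whereas on day 14 it was above *Ext1* in replicate 2 only. *Extl3*, which starts the chain, was also higher on day 14 (log2 fold change 0.47, adjusted p = 0.396 from limma), whereas the linker enzymes *B3gat3* and *B4galt7* were lower (log2 fold changes −0.50 and −0.35, adjusted p = 0.379 and 0.483 from limma). In this list of 11 genes, 2 were higher and 2 lower at an unadjusted p under 0.05, and the median log2 fold change was 0.068.

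Of 13 tested genes for sulfation and epimerization, 2 were higher and 1 lower at an unadjusted p under 0.05, and the median log2 fold change was 0.24. *Hs3st1*, a sulfotransferase acting late in chain modification, had 11.1, 12.3 and 8.08 FPKM on day 10 and 24.9, 17.7 and 18.2 FPKM on day 14 (log2 fold change 0.95, adjusted p = 0.298 from limma), with no overlap. *Hs6st1* was higher although its days overlapped (0.75 in log2 fold change, with an adjusted p of 0.454 from limma). *Hs3st6* was lower, from 1.14 to 3.43 FPKM on day 10 and 0.419 to 0.666 FPKM on day 14 (log2 fold change −1.66, adjusted p = 0.352 from limma). Its day 14 values were close to the depth limit, so the size of this difference is uncertain. *Hs2st1* and *Ndst1*, which add sulfate to the uronic acid and to the amino group of glucosamine, had the highest levels of the list, at 17.8 and 16.3 FPKM over the 6 samples, with log2 fold changes of 0.30 (95% interval −0.12 to 0.73) and 0.37 (95% interval −0.054 to 0.79).

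Of the 10 tested genes for editing and degradation, 5 had an unadjusted p under 0.05, all higher on day 14, and the median log2 fold change was 0.54. *Sulf1*, which removes sulfate from heparan sulfate outside the cell, had 39.9, 60.0 and 64.6 FPKM on day 10 and 102, 65.8 and 116 FPKM on day 14 (log2 fold change 0.77, adjusted p = 0.389 from limma). Replicate 2 was again the lowest of the day 14 samples, just above the highest day 10 sample. *Sulf2* had 26.9, 36.8 and 57.7 FPKM on day 10 and 63.6, 42.2 and 103 FPKM on day 14, and its days overlapped (0.76 in log2 fold change, with an adjusted p of 0.538 from limma). The lysosomal enzymes *Naglu*, *Ids* and *Hgsnat* were higher on day 14 without overlap, with log2 fold changes of 0.68, 0.63 and 0.45 and adjusted p of 0.305, 0.361 and 0.365 from limma.

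Among 11 genes for core protein shedding and processing, *Notum* and *Pcsk6* were lower and *Adam17* was higher on day 14 at an unadjusted p under 0.05. *Notum* encodes a secreted esterase that binds glypicans and strips the lipid from Wnt proteins. It had 21.97, 39.4 and 15.7 FPKM on day 10 and 2.29, 11.0 and 1.87 FPKM on day 14. The days did not overlap, and replicate 2 was nearest to day 10 (log2 fold change −2.68, SE 0.63, adjusted p = 0.305 from limma). Without replicate 2 of day 14 it was −3.46 with an adjusted p of 0.0197 from limma, the only gene of the 6 lists, and of the members, with an adjusted p under 0.05 in any of the 16 other settings. *Pcsk6*, a proprotein convertase, had 169, 120 and 60.1 FPKM on day 10 and 25.1, 63.4 and 10.9 FPKM on day 14 (log2 fold change −2.04, adjusted p = 0.340 from limma). Its days overlapped through replicate 2, without which the log2 fold change was −2.68 (adjusted p = 0.0639 from limma), and without replicate 3 of day 14 it was −1.42 (adjusted p = 0.670 from limma). *Adam17*, a sheddase of syndecan ectodomains, had a log2 fold change of 0.44 (adjusted p = 0.379 from limma), while the more abundant *Mmp2* and *Mmp14*, at 980 to 1468 and 479 to 812 FPKM over the 6 samples, had log2 fold changes of 0.39 each (adjusted p = 0.633 and 0.599 from limma) without overlap between days.

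Of 12 genes whose products bind syndecan tails or lie near them, 4 were higher and 1 lower on day 14 at an unadjusted p under 0.05, with a median log2 fold change of 0.31. *Sdcbp* encodes syntenin, an adaptor that binds the end of all syndecan tails, and had 117, 130 and 138 FPKM on day 10 and 168, 181 and 210 FPKM on day 14 (log2 fold change 0.53, adjusted p = 0.347 from limma). Its days did not overlap, and *Sdcbp* was above every single syndecan except *Sdc3* on average. *Cask*, another adaptor of the tail, and *Ezr*, which links membrane proteins to actin, were higher as well (log2 fold changes 0.43 and 0.73, adjusted p = 0.451 and 0.465 from limma), as was *Actn1* with overlapping days (0.53, adjusted p = 0.483 from limma), which was named after its values were seen. The actin-binding *Actn4* and *Cttn* had levels of 124 and 84.7 FPKM over the 6 samples, with overlapping days and log2 fold changes of 0.20 and 0.082. *Gipc1*, an adaptor that binds syndecan-4, was lower (log2 fold change −0.41, adjusted p = 0.425 from limma). None of the 3 secreted heparan sulfate proteoglycans had an unadjusted p under 0.05: *Hspg2* (perlecan), *Agrn* (agrin) and *Col18a1* (collagen XVIII) had log2 fold changes of 0.15, 0.19 and 0.60.

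The genes most like a member were sought among 11162 genes with a mean of at least 1 FPKM, by the root mean square difference between profiles of log2(FPKM + 0.1) over the 6 samples, each centred on its own mean. For *Gpc1* these were *Shisa4*, *Raph1* and *Zfand2b*, with differences of 0.094, 0.097 and 0.099 log2 units. For *Sdc3* they were *Dysf*, *Smox* and *Ptprf*, with differences of 0.14 each. For *Gpc5*, the member with the largest SD over the samples, they were *C3ar1*, *Nkain4* and *Lin9*, with differences of 0.27, 0.29 and 0.30, and this profile rests on few reads. Among the 8 members above 1 FPKM, the closest profiles were those of *Sdc2* and *Sdc4*, which differed by 0.13, followed by *Sdc2* and *Gpc4* at 0.18 and *Sdc1* and *Gpc6* at 0.19, while those of *Sdc1* and *Sdc3* were farthest apart at 1.10. The X-linked neighbours *Gpc3* and *Gpc4* differed by 0.45. These distances are descriptions over samples that share the same libraries.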

How the data were processed

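RNA from sorted ECFP+ OBs of day 10 (n = 3) and day 14 (n = 3) was amplified with a SMART-Seq kit and sequenced in single-end reads of 75 bases. The deposited values are FPKM per gene and sample, made by the authors with TopHat2 2.0.13, Bowtie2 2.2.3, SAMtools 0.1.19 and Cufflinks 2.2.1, as their processing notes list. The gene annotation and the treatment of reads with several matches are not given in the sources used here. Samples were grouped by title. The number of columns of other samples was 0.

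Genes with a mean above 0.1 FPKM (19526) were tested with limma 3.58.1 (R 4.3.3; trend) on log2(FPKM + 0.1), two-sided, with Benjamini-Hochberg adjustment, and the script was tested on simulated data. Exact permutation tests used SciPy 1.17.1. Depth was estimated from the FPKM steps of 1977 genes with a single transcript of 1500 to 8000 bases at up to 0.3 FPKM. Positions are those of GENCODE vM21 on mm10. Protein sequences were not analysed here.

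The members and gene lists were chosen with earlier results of these data known. All members were named, and of each list the 3 genes with the highest mean and up to 4 genes with an unadjusted p under 0.05, smallest p first. Some genes that this rule names are not reported here. The nearest profiles were given for the 2 members with the highest mean and the 2 with the largest SD. Pseudocount, filter, scaling, model, replicate block and each left-out sample were varied, 16 settings in all.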

Additional observations from a re-analysis of the deposited data

How the results depend on the processing

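No member had an adjusted p under 0.05 in any of the 16 other settings. The direction of *Sdc1*, *Gpc4*, *Gpc6*, *Sdc2*, *Sdc3* and *Gpc1* was the same in all 16, with log2 fold changes of 0.66 to 1.05 for *Sdc1*, 0.37 to 0.54 for *Gpc4* and 0.50 to 0.88 for *Gpc6*. The number of members with an unadjusted p under 0.05, 3 as reported, ran from 2 to 5 when 1 sample was left out, and was 5 without replicate 2 of day 14, where *Sdc3* and *Gpc1* joined. Without that sample the log2 fold change was 1.05 for *Sdc1*, 0.37 for *Gpc4* and 0.77 for *Gpc6*. For *Gpc2*, *Gpc3* and *Gpc5* it was −0.15, 0.0080 and 0.84. The direction turned for genes near 0: leaving out 1 sample gave −0.053 to 0.31 for *Sdc4*, −0.49 to 0.49 for *Gpc2*, −0.30 to 0.26 for *Gpc3* and −0.82 to 0.84 for *Gpc5*, a pseudocount of 1 gave 0.014 for *Gpc2* and 0.083 for *Gpc5*, and quantile normalization gave 0.14 and 0.22. The cause was not tested. *Gpc2* and *Gpc5* have no value with a mean above 1 FPKM required. Of the 60 other genes, 14 were higher and 6 lower at an unadjusted p under 0.05. Without the mean-variance trend these counts were 7 and 3, and leaving out 1 sample gave 7 to 14 and 2 to 5, with 0 to 1 genes at an adjusted p under 0.05. In an alternative added after seeing the data, leaving out 1 sample for the named genes of the lists and for the family sums turned the direction of *Ext2* (−0.12 to 0.0050) and *Agrn* (−0.026 to 0.33), and of the syndecan sum without replicate 2 of day 14. On a TPM scale, 3 rather than 2 neighbours in the order of levels did not overlap. Over all genes, 3 had an adjusted p under 0.05, beside 76 without replicate 2 of day 14, 6 with the ordinary linear model, 2 with the replicate block and 0 on the TPM scale. Deviations from the day means correlated at 0.058, −0.0058 and 0.089 for replicate numbers 1, 2 and 3, across genes. Whether the samples were paired cannot be told from these values, which take in all genes tested, low ones included. With the replicate block, 4 members had an unadjusted p under 0.05, with *Sdc3* in addition (adjusted p = 0.457 from limma). Among the members, depth limits *Gpc2* and *Gpc5*, and among the genes of the lists it limits the day 14 values of *Hs3st6*.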
